A study of Drosophila melanogaster with 5 samples.

Results

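The cuticle protein genes described here are the Drosophila melanogaster genes whose FlyBase symbol starts with Cpr, Lcp or Ccp84A, so they were chosen by name and not by expression. The name rule found 95 of the 17735 genes counted, and 1 of these, Cpr, encodes NADPH cytochrome P450 reductase and is not a cuticle protein gene. Of the other 94 genes, 65 had enough reads for the test between genotypes, 16 had reads but too few, and 13 had no read in any library. RNA-seq of poly(A) RNA from whole third-instar larvae was available as 3 libraries of CG1603attP and 2 of y1w1118, all described as biological replicates. CG1603attP larvae were homozygous for an allele in which CG1603, the gene of the C2H2 protein Mzfp1, is replaced by an attP site and a 3P3:dsRed reporter. They came from parents that carried the deletion over the CyO,GFP balancer, and such homozygotes die as second- or third-instar larvae. The y1w1118 larvae carry an intact CG1603, and the y1 and w1118 alleles are shared by both lines. The paper's Results place the deletion in the y1w1118 line. Its Methods name a Bloomington line for the injected embryos, whose progeny were crossed to a y1w1118 balancer line. The lines may thus differ elsewhere in the genome, which was not tested. Each genotype was a single line of whole animals pooled by weight, with no age given within the instar.

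The insect cuticle is a layered matrix of chitin fibres and proteins that the epidermis and the tracheal cells secrete and replace at each moult. Proteins of the Cpr family carry the Rebers and Riddiford consensus, a domain that binds chitin. The Lcp genes were named for the major proteins of the larval cuticle, and the Ccp84A genes for a cluster of cuticle genes in band 84A of chromosome 3R. Many of these genes lie side by side in the genome and are switched on in short periods around a moult, as ecdysone levels rise and fall, so their level in a larva is known to depend on its age within an instar.

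The libraries held from 9044930 to 14514277 reads on genes other than ribosomal RNA genes, and levels are given in CPM, which scales reads to TMM-adjusted library sizes. A single read was worth 0.0668 to 0.116 CPM, and 3 reads, used as the floor for fold changes, 0.200 to 0.348 CPM. CG1603 itself had 0, 0 and 3 reads in CG1603attP and 124 and 102 reads in y1w1118, which does not go against the labels. The genes that define late third-instar larvae were close to absent everywhere: Lsp1alpha, Lsp1beta, Lsp1gamma, Lsp2, Fbp1 and Fbp2 summed to 6.21, 5.52 and 14.6 CPM in CG1603attP and to 14.1 and 8.82 CPM in y1w1118. The 6 glue protein genes of the late larval salivary gland summed to 0.424 to 2.75 CPM.

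To separate genotype changes from differences among libraries of one genotype, every gene was described both ways. The 94 genes together reached 2601, 1211 and 1117 CPM in CG1603attP replicates 1, 2 and 3, against 3846 and 6392 CPM in y1w1118 replicates 1 and 2. The sum was thus lower in each CG1603attP library than in either y1w1118 library, and it also differed within each genotype, with CG1603attP replicate 1 and y1w1118 replicate 2 at the top of their own genotype. Single genes fell into 3 kinds. A first set of 22 genes differed between the genotypes by edgeR's quasi-likelihood test (19 lower and 3 higher in CG1603attP, adjusted p under 0.05). A second set of 22 genes was at least 3 log2 units apart between libraries of one genotype, with at least 10 CPM in the highest library. The remaining 50 genes showed neither. No gene belonged to both of the first sets.

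**Figure D1:**
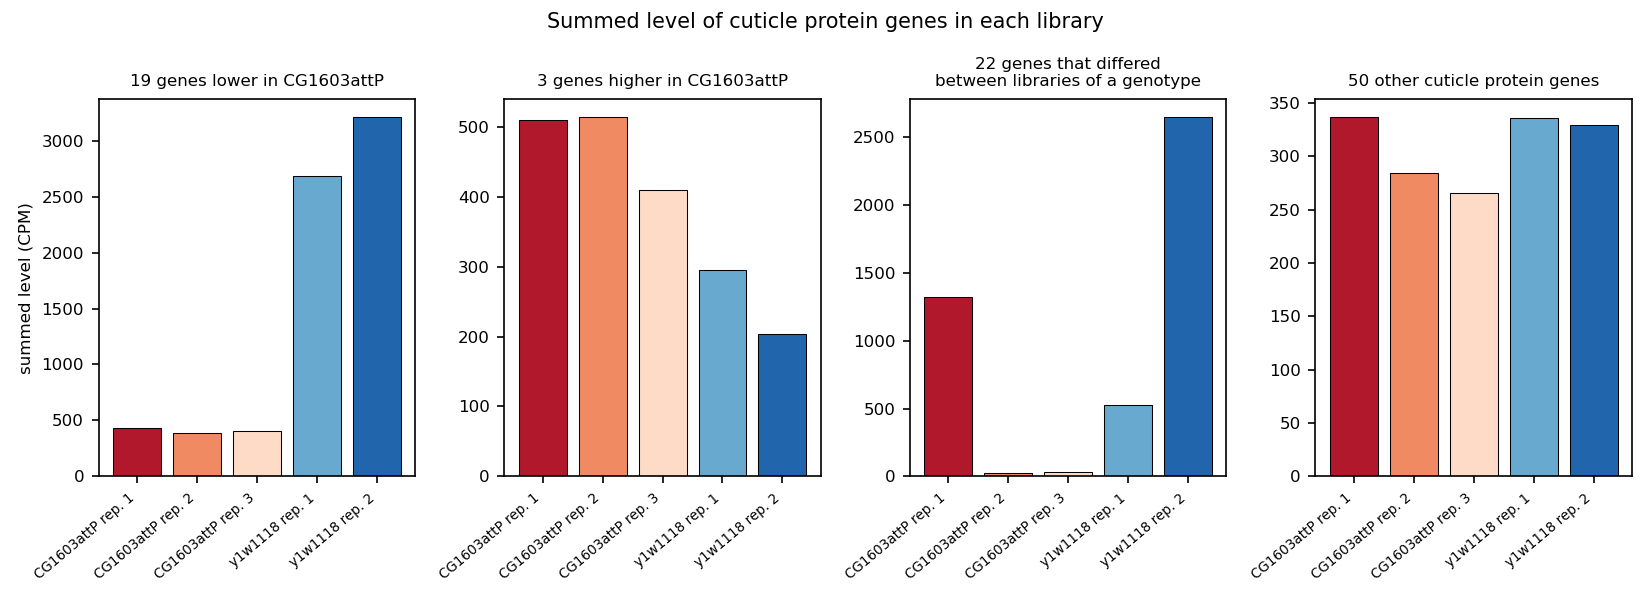
Summed level of cuticle protein genes in CPM (vertical axis, from 0, with its own scale in each panel) in each library, 1 bar per library, with the 3 CG1603attP libraries in reds left of the 2 y1w1118 libraries in blues. The 19 genes lower in CG1603attP summed to 389 to 431 CPM in CG1603attP and to 2686 and 3212 CPM in y1w1118, whereas the 22 genes that differed between libraries of a genotype were high in CG1603attP replicate 1 and y1w1118 replicate 2.

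Of the 65 genes tested, 19 were lower in CG1603attP, or 29.2%, beside 15.7% of all 11045 genes tested, and 3 were higher, or 4.62%, beside 14.6% of all genes. At an unadjusted p under 0.05 the counts were 23 lower and 3 higher. In 34 of the 65 genes every CG1603attP library was below both y1w1118 libraries, beside 30.8% of all genes, and in 3 genes every CG1603attP library was above both, beside 28.9% of all genes. The median log2 fold change was −2.06 over the 65 genes, also with the 4 called genes at the floor set to their bound, and −0.011 over all genes tested. It was below 0 for 55 genes and above 0 for 10. In bulk RNA from whole larvae, fewer cells that express a gene and less RNA per cell cannot be told apart, and neither can a genotype effect and a difference in age within the instar.

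The 19 lower genes had similar sums in the libraries of a genotype. A small spread within a genotype is part of what a call requires. The 19 genes summed to 431, 389 and 407 CPM in CG1603attP and to 2686 and 3212 CPM in y1w1118. Their median range between libraries of one genotype was 0.73 log2 units in CG1603attP and 0.23 in y1w1118. Over all genes tested these medians were 0.55 and 0.19. Ranges are of log2(CPM + 1), which narrows them for genes near the floor. Among the 19, the widest ranges were 2.31 log2 units in CG1603attP, for Lcp65Ag1, and 2.10 in y1w1118, for Cpr67Fa1. The 19 genes made up 16.6%, 32.1% and 36.4% of the summed cuticle protein level in CG1603attP replicates 1, 2 and 3, against 69.9% and 50.2% in y1w1118 replicates 1 and 2. Their log2 fold changes ran from −11.15 to −1.55.

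Lcp3, 1 of the 4 larval cuticle protein genes first isolated from third-instar cuticle, had no read in any CG1603attP library, against 228 and 238 reads in y1w1118. Its level was 25.0 ± 3.70 CPM in y1w1118 (SD, n = 2), so it was at least 78.7-fold lower in CG1603attP (edgeR, adjusted p = 7.03e-04). Lcp4, which starts 1551 bp beyond the end of Lcp3 on chromosome 2R and was picked out once its values were known, kept part of its expression. It had 22.0, 35.4 and 45.6 CPM in CG1603attP, against 302 and 286 CPM in y1w1118, and was 8.55-fold lower (log2 fold change −3.10 ± 0.284 (SE), edgeR adjusted p = 8.16e-04). For neither gene did the mutant libraries overlap with those of y1w1118. Lcp1, in the same cluster, was low throughout, with 13, 0 and 0 reads in CG1603attP, against 15 and 18 reads in y1w1118, and was not called (edgeR adjusted p = 0.280, and 0.0391 without CG1603attP replicate 1). Lcp2 had at most 1.97 CPM in any library and was not tested.

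The next lowest was Cpr67Fa1 (chromosome 3L, 10889990 to 10890700). It had 3, 3 and 0 reads in CG1603attP and 356 and 1316 reads in y1w1118, or 34.9 and 153 CPM there. The bound was at least 295-fold lower in CG1603attP (adjusted p = 9.76e-04 by edgeR), and at least 110.0-fold lower without y1w1118 replicate 2 or 481-fold lower without y1w1118 replicate 1. A near-zero level in all mutant libraries thus stood against a wild-type level that itself differed between libraries. Its neighbour Cpr67Fa2, 1013 bp away on the same strand, was not called. It had 18.4, 0.944 and 0 CPM in CG1603attP, against 36.1 and 112 CPM in y1w1118, so CG1603attP replicate 1 stood far above the other mutant libraries (adjusted p = 0.135 by edgeR). The rules used here thus put these adjacent genes in different kinds. For both, every CG1603attP library was nonetheless below both y1w1118 libraries.

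The Lcp65A genes made up the largest cluster, with 18 members in band 65A of chromosome 3L. Of these, 11 were tested, 6 were lower and 0 were higher, beside 15.7% lower and 14.6% higher of all genes tested. Per kilobase of exon, Lcp65Ag1 had the highest level of all cuticle protein genes in y1w1118, with 1155 CPM per kb, and Lcp65Ag3 the next among the called genes, with 753 CPM per kb. Lcp65Ag3 had 30.1, 31.9 and 34.6 CPM in CG1603attP, against 399 and 419 CPM in y1w1118. Its libraries were almost equal within each genotype, and it was 12.7-fold lower in CG1603attP (log2 fold change −3.67 ± 0.117 (SE), edgeR adjusted p = 8.24e-05, the lowest among these genes). Lcp65Ag2 behaved alike, with 24.6, 18.7 and 18.0 CPM in CG1603attP, against 144 and 141 CPM in y1w1118, and was 7.003-fold lower (edgeR adjusted p = 3.10e-04). Lcp65Ag1 was less even. It had 60.8, 11.5 and 16.3 CPM in CG1603attP, against 473 and 721 CPM in y1w1118, and was 20.2-fold lower (edgeR adjusted p = 0.00554) or 43.0-fold lower without CG1603attP replicate 1. The 3 Lcp65Ag genes are close copies, so reads that fit more than 1 of them were not counted, and the split between them is uncertain. All exonic bases of Lcp65Ag3 are also annotated as part of the antisense RNA gene asRNA:CR46005, and the library kit does not mark strand.

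Lcp65Aa, Lcp65Ae and Lcp65Ac, other larval cuticle genes of the cluster, were lower too. Lcp65Aa had 1.47, 2.76 and 6.88 CPM in CG1603attP, against 43.1 and 58.2 CPM in y1w1118, which is 13.7-fold lower or 24.0-fold lower without CG1603attP replicate 3 (adjusted p = 0.00465 by edgeR). Lcp65Ae had 0.467, 0.291 and 0 CPM in CG1603attP, against 8.64 and 16.5 CPM in y1w1118, a 49.7-fold lower mean that was 86.4-fold lower without CG1603attP replicate 1 (adjusted p = 0.00463 by edgeR, and 0.0587 without y1w1118 replicate 2). For both genes every mutant library was far below both y1w1118 libraries. Lcp65Ac was the weakest call of the cluster. It had 35.1, 10.8 and 17.3 CPM in CG1603attP, against 43.4 and 109 CPM in y1w1118, with adjusted p = 0.0477 (edgeR), and its call was lost in 6 of 16 alternative fits. The fold of 3.62 was 5.43 without CG1603attP replicate 1 and 2.06 without y1w1118 replicate 2. The copies Lcp65Ab1, Lcp65Ab2, Cpr65Ax1 and Cpr65Ax2 of the same cluster had no read in any library, which is uncertain, because reads that map to several places were left out of the counts.

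Of the Cpr genes that stand alone or in smaller clusters, 9 besides Cpr67Fa1 were lower. Cpr60D had 1.80, 0.872 and 2.65 CPM in CG1603attP, against 53.9 and 78.1 CPM in y1w1118, and was 37.2-fold lower (adjusted p = 6.48e-04 by edgeR). Cpr49Ag had 14.1, 13.4 and 7.94 CPM in CG1603attP, against 162 and 189 CPM in y1w1118, and was 14.9-fold lower (adjusted p = 3.75e-04 by edgeR). The ranges within CG1603attP were 0.96 log2 units for Cpr60D and 0.76 for Cpr49Ag, smaller than the differences between genotypes. On the X chromosome, 3 of the 4 genes tested were lower, beside 15.7% of all genes tested, and 4 genes are too few to describe a chromosome. Cpr11A, 1 of the 6 cuticle protein genes with the highest mean level, had 133, 209 and 168 CPM in CG1603attP, against 537 and 458 CPM in y1w1118 (log2 fold change −1.55 ± 0.196 (SE), edgeR adjusted p = 0.00217). Cpr11B had 5.08, 9.08 and 7.20 CPM in CG1603attP, against 32.5 and 32.4 CPM in y1w1118. Cpr12A, named once its values were known, had 0.467, 3.49 and 1.48 CPM in CG1603attP, against 23.1 and 21.5 CPM in y1w1118, a 12.3-fold lower mean that was 22.8-fold lower without CG1603attP replicate 2 and was no longer called without y1w1118 replicate 1 (edgeR adjusted p = 0.0566). Its 3 mutant libraries were all far under both y1w1118 libraries.

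Cpr47Eg and Cpr31A were lower by close to the same factor. Cpr47Eg had 62.4, 15.5 and 46.7 CPM in CG1603attP, against 193 and 271 CPM in y1w1118 (5.58-fold lower, edgeR adjusted p = 0.0128, lost in 3 of 16 alternative fits). Cpr31A had 25.2, 10.2 and 19.7 CPM in CG1603attP, against 103 and 102 CPM in y1w1118 (5.56-fold lower, edgeR adjusted p = 0.00339). In both genes CG1603attP replicate 2 was the lowest library. Cpr100A, also named once its values were known, was even within each genotype, with 13.6, 16.3 and 14.4 CPM in CG1603attP, against 96.6 and 114 CPM in y1w1118 (edgeR adjusted p = 3.04e-04). Cpr92F rested on few reads, with 2, 0 and 0 in CG1603attP and 14 and 12 in y1w1118. It was at least 4.35-fold lower (edgeR adjusted p = 0.0480), and its call was lost in 8 of the 14 alternative fits that tested it.

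**Figure D2:**
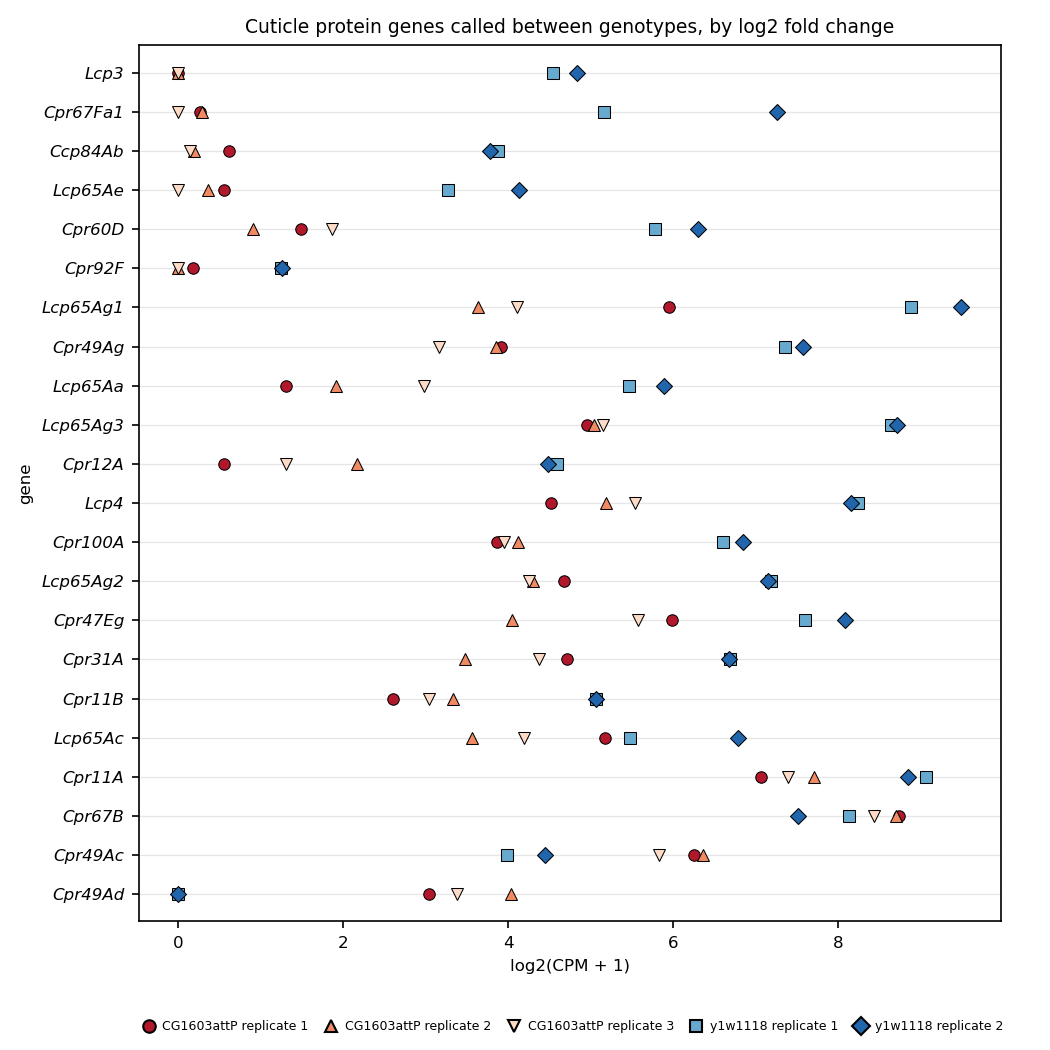
Level of the 22 cuticle protein genes called between genotypes, as log2(CPM + 1) on the horizontal axis, 1 row per gene from the lowest to the highest log2 fold change, 1 symbol per library. In each row the CG1603attP libraries (reds) and the y1w1118 libraries (blues) do not overlap, and the 3 genes at the bottom, Cpr67B, Cpr49Ac and Cpr49Ad, are those higher in CG1603attP.

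The higher genes were Cpr49Ad, Cpr49Ac and Cpr67B. Cpr49Ad had 108, 212 and 89 reads in CG1603attP and no read in either y1w1118 library. At 7.21, 15.4 and 9.42 CPM in CG1603attP it was at least 30.7-fold higher (edgeR adjusted p = 0.00189), a lower bound set against 3 reads in y1w1118. Cpr49Ac, which ends 838 bp before Cpr49Ad and lies on the opposite strand, had 75.3, 81.4 and 55.8 CPM in CG1603attP, against 14.8 and 20.9 CPM in y1w1118 (log2 fold change 1.99 ± 0.258 (SE), edgeR adjusted p = 0.00238). Both genes lie in the same group of 8 genes in band 49A of chromosome 2R as Cpr49Ag, which was lower, so neighbours of this cluster differed in opposite directions. Cpr67B had the highest level per kilobase of exon in CG1603attP, 392 CPM per kb. Its difference was small, with 426, 417 and 344 CPM in CG1603attP, against 280 and 182 CPM in y1w1118 (1.71-fold higher, edgeR adjusted p = 0.0318), and it was not called in 4 of 16 alternative fits.

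Cpr47Eb gave a contrast among the abundant genes. It had 258, 241 and 229 CPM in CG1603attP, against 246 and 149 CPM in y1w1118, with overlapping libraries (log2 fold change 0.30 ± 0.213 (SE), edgeR adjusted p = 0.343). A single y1w1118 library, replicate 2, lay apart from the rest. The cuticle protein genes with the highest levels therefore included genes lower, higher and not called in CG1603attP.

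The second set of 22 genes was defined by a wide difference among libraries of one genotype, which does not exclude a genotype difference as well. Of the 21 tested, 18 had a log2 fold change below 0. In CG1603attP, 20 genes had a range of at least 3 log2 units, beside 1.05% of all genes tested, and replicate 1 was the highest library for all 20. In y1w1118, 12 genes had such a range, beside 0.706% of all genes, and replicate 2 was the higher library for all 12. Both genotypes showed it for 10 genes, beside 0.552% of all genes. Together the 22 genes summed to 1324, 23.4 and 34.5 CPM in CG1603attP, against 529 and 2648 CPM in y1w1118. That is 50.9%, 1.93% and 3.09% of the summed cuticle protein level in CG1603attP replicates 1, 2 and 3, and 13.7% and 41.4% in y1w1118 replicates 1 and 2. Of the 21 genes tested, 0 were called by edgeR, with adjusted p between 0.135 and 0.991, 0 had an unadjusted p under 0.05 and 0 were called by DESeq2, and a spread this wide within a genotype leaves little room for a call.

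For the 10 genes with a wide range in both genotypes, CG1603attP replicate 1 and y1w1118 replicate 2 were the high libraries. Cpr65Ea had 125, 1.09 and 0 CPM in CG1603attP, against 0.294 and 134 CPM in y1w1118. Cpr66D had 42.1, 0.363 and 0 CPM in CG1603attP, against 0.491 and 101 CPM in y1w1118. In both genes the low libraries had about 1 CPM or less in either genotype. Cpr64Ab had 77.2, 0.726 and 0.953 CPM in CG1603attP, against 1.47 and 70.7 CPM in y1w1118, and Ccp84Ac had 72.4, 1.23 and 2.75 CPM in CG1603attP, against 0.491 and 49.5 CPM in y1w1118. For these the high mutant library was even above the high y1w1118 library. The other genes of this kind were Ccp84Af, Ccp84Ag, Cpr30F, Cpr51A, Cpr64Ad and Lcp65Ad.

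Cpr51A, Cpr64Ad and Ccp84Ag kept a moderate level in y1w1118 replicate 1. Cpr51A had 185, 1.67 and 2.12 CPM in CG1603attP, against 18.6 and 262 CPM in y1w1118. Cpr64Ad had 278, 6.39 and 5.40 CPM in CG1603attP, against 16.9 and 404 CPM in y1w1118. Ccp84Ag had 106, 3.27 and 1.80 CPM in CG1603attP, against 18.4 and 180 CPM in y1w1118. Here the high library of each genotype and the low libraries of each genotype were both lower in CG1603attP, although the genotypes overlapped. Cpr30F, in contrast, had 12.0, 0.145 and 0 CPM in CG1603attP, against 0.196 and 33.6 CPM in y1w1118, and so had 2 reads or fewer in each low library.

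The 10 genes with a wide range in CG1603attP alone had a median of 25.8 CPM in y1w1118 replicate 1, from 0 CPM for Cpr5C to 172 CPM for Lcp65Af. That the y1w1118 libraries lay closer together here than for the previous kind follows from how the kinds were defined. Lcp65Af had 135, 0 and 3.71 CPM in CG1603attP, against 172 and 654 CPM in y1w1118. Cpr78Cc had 76.5, 1.89 and 3.60 CPM in CG1603attP, against 132 and 236 CPM in y1w1118. Both y1w1118 libraries were above all CG1603attP libraries for these genes, as they were for Cpr67Fa2 and for Ccp84Ad and Cpr62Bc, which were named once their values were known. Lcp65Af lies between Lcp65Ag1 and Lcp65Ae, both called lower, and its level of 796 CPM per kb of exon in y1w1118 was the second highest of the cuticle protein genes there. Its edgeR adjusted p of 0.246 came with a standard error of 1.82 log2 units. The last members of the set, Ccp84Ae and Cpr66Cb, had a wide range in y1w1118 alone, with at most 14.2 CPM in any library.

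**Figure D3:**
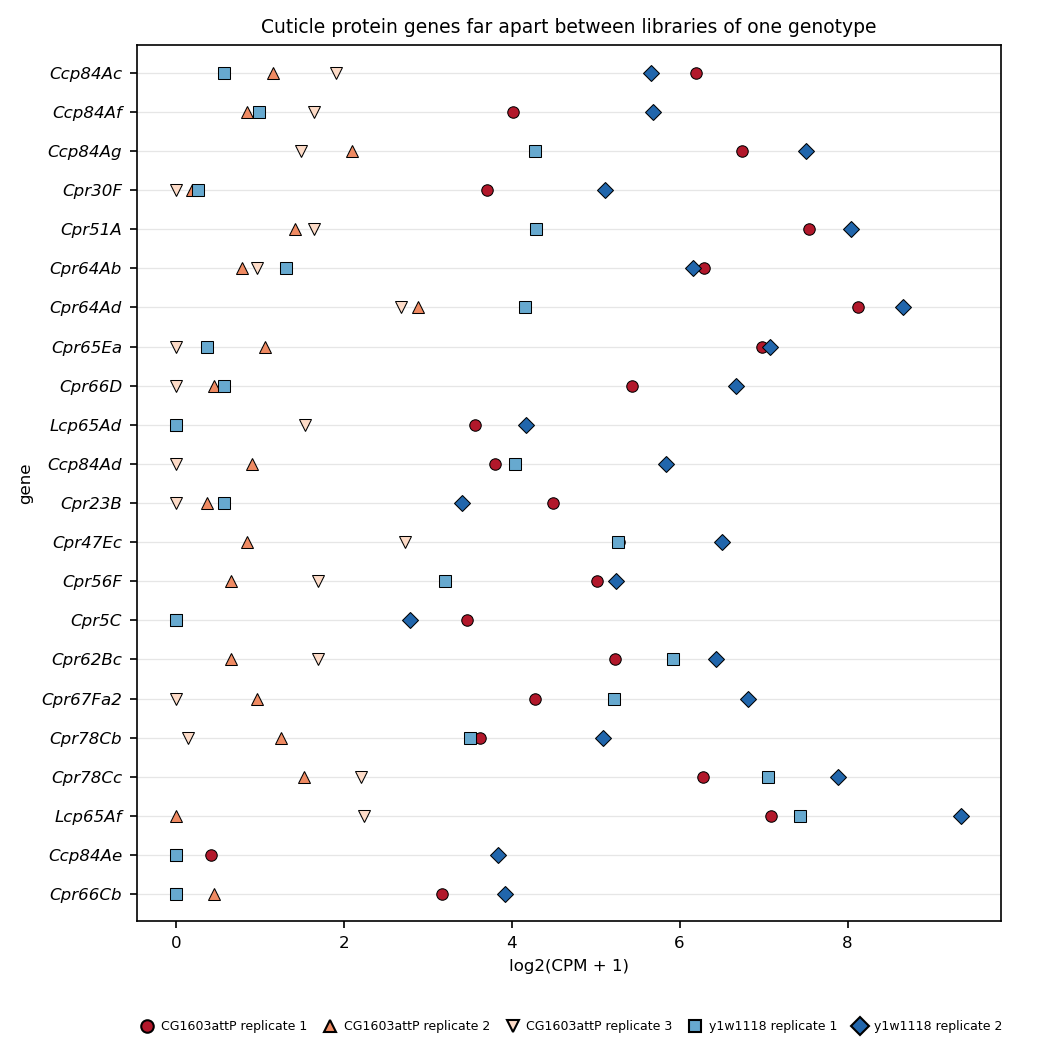
Level of the 22 cuticle protein genes at least 3 log2 units apart between libraries of one genotype, as log2(CPM + 1) on the horizontal axis, 1 row per gene and 1 symbol per library. The top 10 rows have the wide range in both genotypes, the next 10 in CG1603attP alone and the last 2 in y1w1118 alone, and the CG1603attP replicate 1 circle and the y1w1118 replicate 2 diamond lie to the right in nearly every row.

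The same libraries were highest among the 65 genes tested as a whole. CG1603attP replicate 1 was the highest mutant library for 46 genes, replicate 2 for 11 and replicate 3 for 8, and y1w1118 replicate 2 was above replicate 1 for 52 genes and below it for 12. Across the 65 genes, the difference of CG1603attP replicate 1 from the mean of replicates 2 and 3 went with the difference of y1w1118 replicate 2 from replicate 1 (Pearson's r = 0.788, Spearman's rho = 0.774). Across all 11045 genes tested, r was 0.528 and rho 0.035. These values describe genes that share the same 5 libraries and are not independent, so no p is given. The median range was 1.67 log2 units in CG1603attP and 0.86 in y1w1118 over the 65 genes, against 0.55 and 0.19 over all genes. The 22 called genes had median ranges of 0.69 log2 units in CG1603attP and 0.23 in y1w1118, and a small spread within a genotype is part of what the call requires.

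**Figure D4:**
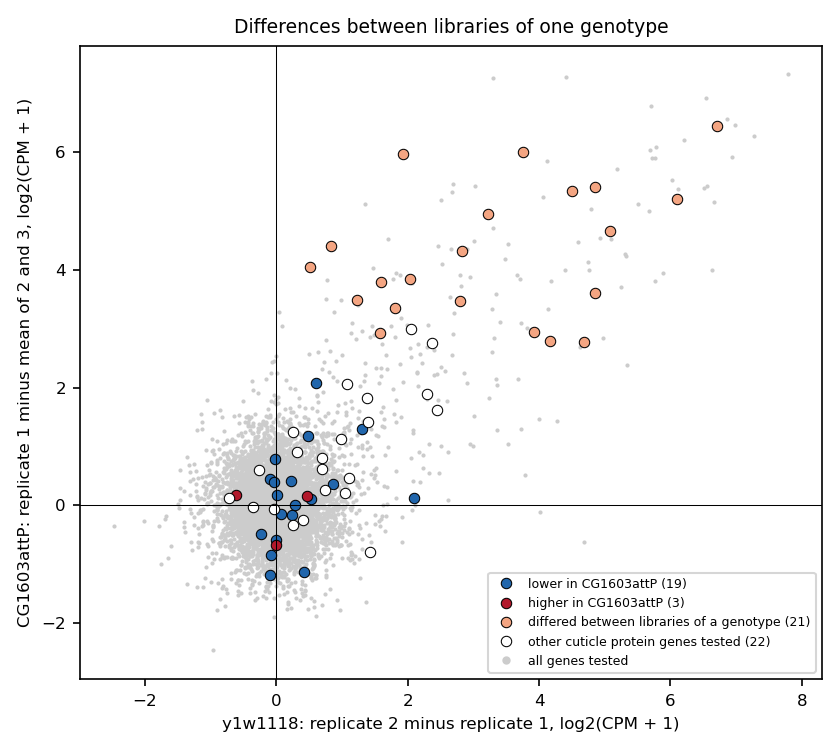
Difference in log2(CPM + 1) between CG1603attP replicate 1 and the mean of replicates 2 and 3 (vertical axis) and between y1w1118 replicates 2 and 1 (horizontal axis), 1 point per gene, with all 11045 genes tested in grey. Most called cuticle protein genes lie within the grey cloud, with Lcp65Ag1 above its middle and Cpr67Fa1 to the right of it, and the genes that differed between libraries of a genotype (21 tested) lie to the upper right.

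Twdl and Osi genes, which encode other cuticle proteins and membrane proteins of cuticle-forming cells, moved with the same libraries. The 47 genes of these families summed to 3773, 259 and 308 CPM in CG1603attP, against 1044 and 2946 CPM in y1w1118, and 14 of them had a range of at least 3 log2 units in both genotypes. Of the 33 tested, 4 were lower in CG1603attP and 0 were higher (edgeR, 0 also at an unadjusted p under 0.05 and by DESeq2). Over all genes tested, 15.7% were lower and 14.6% higher. When the mean log2(CPM + 1) of the 47 genes in each library was entered as a covariate, 33 cuticle protein genes were lower by edgeR, beside 15.3% of all genes in that fit, and 3 were higher. Of the 33, 18 were among the 19 of the test without the covariate, and Cpr92F was lost. Among the 10 genes with a wide range in CG1603attP alone, 7 were lower in this fit, including Lcp65Af (log2 fold change −4.57 ± 0.897 (SE), adjusted p = 0.00811), Cpr78Cc (−3.83 ± 0.677 (SE), adjusted p = 0.00522) and Cpr67Fa2 (−4.20 ± 0.694 (SE), adjusted p = 0.00391). Among the 10 genes with a wide range in both genotypes, 4 were lower, including Cpr51A (−1.84 ± 0.367 (SE), adjusted p = 0.00868) and Cpr64Ad (−1.02 ± 0.182 (SE), adjusted p = 0.00560), whereas Cpr65Ea, Cpr64Ab and Ccp84Ac were not (adjusted p between 0.320 and 0.730). The covariate was 3.94, 1.10 and 1.22 in CG1603attP, against 1.39 and 3.71 in y1w1118. It was thus high in the same libraries as the genes of the second set. Entering it removes their spread within a genotype by construction, so the added calls are not independent evidence of a genotype difference. The covariate is itself an expression level of larvae of these genotypes, and its part in the levels of the cuticle protein genes was not tested.

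Leaving out libraries gave more lower than higher cuticle protein genes, while log2 fold changes of the second set moved with the libraries left out. Without CG1603attP replicate 1, 34 of the 59 cuticle protein genes tested were lower and 2 were higher, beside 14.1% of all genes lower in that fit. Of the 34, 18 were among the 19. For genes with a wide range in CG1603attP, replicate 1 was the highest mutant library, so leaving it out lowers their mutant mean by construction. With CG1603attP replicate 1 and y1w1118 replicate 2 both left out, 27 genes were lower, beside 8.69% of all genes, and 18 of these were among the 19. In that comparison Lcp65Af and Cpr78Cc had log2 fold changes of −6.70 and −5.63. For both genes the 2 libraries left out were the highest of their genotype. Leaving them out thus removes spread within a genotype by construction. The comparison sets 2 mutant libraries against a single y1w1118 library, which is assumed to vary as the mutant libraries do. With only y1w1118 replicate 2 left out, genes of the second set went both ways. Lcp65Af and Cpr78Cc then had log2 fold changes of −1.90 and −2.27. Those of Cpr51A, Cpr64Ad and Ccp84Ag were above 0, at 1.75, 2.51 and 1.01. Across all 16 alternative fits, 16 of the 22 called genes kept their call in each fit that tested them and no called gene changed direction.

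The members of a cluster did not all follow 1 pattern. In band 84A on chromosome 3R, 5 of the 7 Ccp84A genes differed between libraries of a genotype, while Ccp84Ab was lower in CG1603attP. Ccp84Ab had 0.534, 0.145 and 0.106 CPM in CG1603attP, against 13.6 and 12.8 CPM in y1w1118, and was 50.4-fold lower (edgeR adjusted p = 0.00182). It lies 5696 bp from Ccp84Ac, which reached 72.4 CPM in CG1603attP replicate 1, so the library with the most Ccp84Ac had almost no Ccp84Ab. In band 65A, 6 genes were lower, 2 differed between libraries and 7 were not tested. In band 64A, where 4 genes were tested, Cpr64Ab and Cpr64Ad differed between libraries and none was called.

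**Figure D5:**
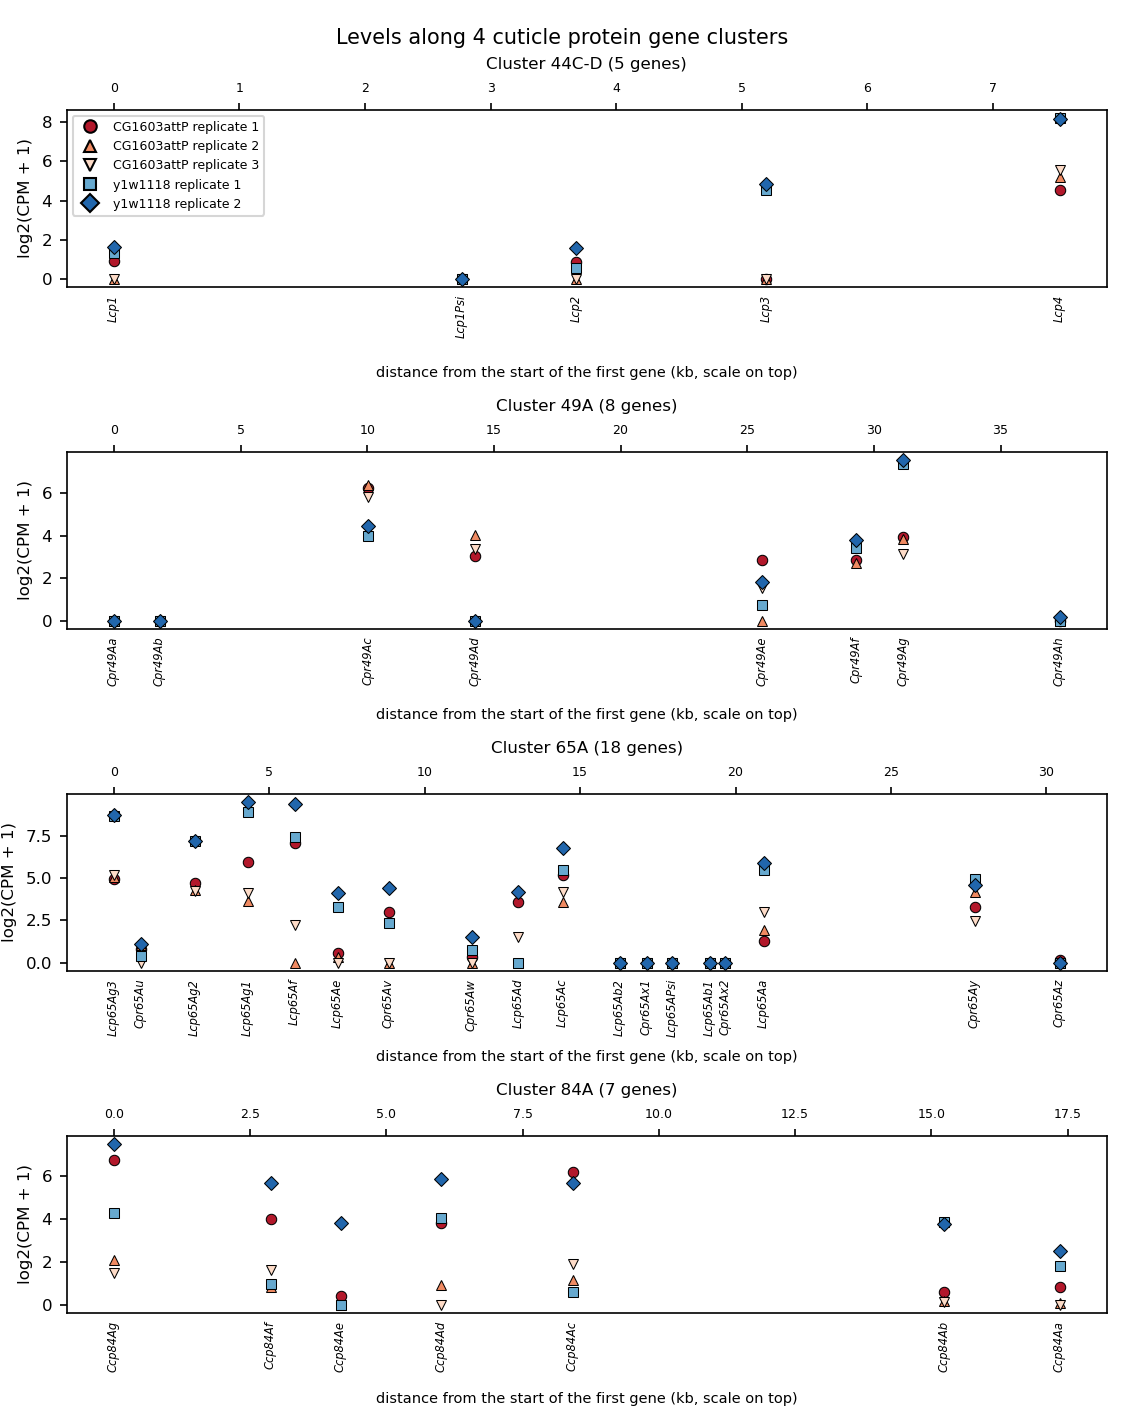
Level of each gene along 4 clusters, as log2(CPM + 1) on the vertical axis against the distance in kb from the start of the first gene, 1 symbol per library. In cluster 49A Cpr49Ac and Cpr49Ad are higher and Cpr49Ag is lower in CG1603attP, and in cluster 84A Ccp84Ab separates the genotypes while Ccp84Ac, Ccp84Af and Ccp84Ag separate CG1603attP replicate 1 and y1w1118 replicate 2 from the rest.

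Of the 22 other genes tested, 0 were called by edgeR, although 4 were lower at an unadjusted p under 0.05 and 4 by DESeq2. Of these 22, 12 averaged under 5 CPM in both genotypes, 18 had a log2 fold change below 0, and adjusted p lay between 0.0531 and 0.981. The 29 genes not tested included Ccp84Ae, with 114 reads in y1w1118 replicate 2, and otherwise had at most 28 reads in any library. The 13 genes without a read, each allowing up to 3 reads or 0.348 CPM in the shallowest library, included the pseudogenes Lcp1Psi and Lcp65APsi. In all, 7 of the 94 genes share exonic bases with another gene of the Ensembl annotation, and where the authors' annotation held the same overlap their counts can be too low. Lcp65Ag3 shares all 543 exonic bases but had 4062 and 3609 reads in y1w1118, so its reads were not set aside for that overlap.

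Genes that make or shape the chitin matrix gave a mixed picture beside the cuticle protein genes. Of 19 genes found from a list of chitin and apical matrix genes, 8 were lower in CG1603attP, beside 15.7% of all genes tested. Of the 19, 0 were higher, beside 14.6% of all genes (edgeR, 0 also at an unadjusted p under 0.05 and by DESeq2). Their median log2 fold change was −1.13. Cht10, a chitinase, had 135, 236 and 182 CPM in CG1603attP, against 1039 and 817 CPM in y1w1118 (log2 fold change −2.33 ± 0.240 (SE), edgeR adjusted p = 0.00112). The chitinase gene Cht5 and the chitin-binding protein gene obst-B were also lower (edgeR adjusted p = 0.00778 and 0.0133). The gene of the epidermal chitin synthase, kkv, had 129, 117 and 146 CPM in CG1603attP, against 114.7 and 141 CPM in y1w1118, with overlapping libraries (edgeR adjusted p = 0.898). Of the tanning genes, which harden and colour the cuticle, 4 were tested and 0 were called (edgeR, 0 also at an unadjusted p under 0.05 and by DESeq2).

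Markers of the cells that secrete cuticle did not move as 1 group. Of 9 epidermal and tracheal genes, 6 were lower in CG1603attP, beside 15.7% of all genes tested. Of the 9, 0 were higher, beside 14.6% of all genes (edgeR, 0 also at an unadjusted p under 0.05 and by DESeq2). The lower genes were vvl, btl, nyo, neo, tyn and pio (edgeR adjusted p between 0.00225 and 0.0440), and grh, trh and dyl were not called. The 9 genes summed to 526, 427 and 423 CPM in CG1603attP, against 601 and 655 CPM in y1w1118. The epidermal transcription factor gene grh had 164, 173 and 165 CPM in CG1603attP, against 153 and 149 CPM in y1w1118 (log2 fold change 0.15 ± 0.104 (SE), edgeR adjusted p = 0.336), while btl, the fibroblast growth factor receptor of the trachea, had 2.94, 1.45 and 1.38 CPM in CG1603attP, against 18.7 and 18.6 CPM in y1w1118. The gene dyl, which encodes an apical membrane protein of the epidermis, followed the libraries, with 110, 0.726 and 1.59 CPM in CG1603attP, against 0.393 and 49.8 CPM in y1w1118. Of 10 imaginal disc genes, 1 was lower and 0 were higher (edgeR, with 1 higher at an unadjusted p under 0.05 and 0 by DESeq2). The counts of imaginal disc genes cannot be told from the same 15.7% and 14.6% of all genes. The part of these cell types in the levels of the cuticle protein genes was not tested.

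Of 14 genes of the ecdysone response, which times the moults, 3 were lower and 1 was higher by edgeR. Over all genes tested, 15.7% were lower and 14.6% higher, and counts this small cannot be told from those shares. At an unadjusted p under 0.05 the counts were 3 lower and 5 higher, and by DESeq2 3 lower and 3 higher. EcR, the ecdysone receptor gene, was higher (log2 fold change 0.46 ± 0.119 (SE), edgeR adjusted p = 0.0287), and Hr4, a nuclear receptor gene induced by ecdysone, was lower (−1.92 ± 0.399 (SE), edgeR adjusted p = 0.0129). The nuclear receptor gene ftz-f1, expressed as ecdysone falls before cuticle is laid down, had 334, 231 and 227 CPM in CG1603attP, against 20.03 and 116 CPM in y1w1118, without overlap (edgeR adjusted p = 0.0709). Edg91, a cuticle protein gene of the prepupa, had at most 1.67 CPM in CG1603attP, against 19.9 and 22.6 CPM in y1w1118 (edgeR adjusted p = 0.0121). The 5 prepupal and pupal genes summed to 7.08, 4.65 and 0.741 CPM in CG1603attP, against 23.4 and 31.0 CPM in y1w1118, and Acp65Aa, the adult cuticle gene of band 65A, had no read. The 6 adult genes summed to 1.27, 1.96 and 18.4 CPM in CG1603attP, against 2.36 and 1.74 CPM in y1w1118, so they were highest in a library where the cuticle protein genes were low.

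Cpr, found by the name rule through its symbol alone, gave a clear difference of its own. It encodes the reductase that passes electrons to the microsomal cytochrome P450 enzymes, which act in detoxification and in steroid synthesis. It had 775, 733 and 832 CPM in CG1603attP, against 241 and 264 CPM in y1w1118, and was 3.09-fold higher (log2 fold change 1.63 ± 0.122 (SE), edgeR adjusted p = 4.51e-04). It kept this call in all 16 alternative fits, and its libraries lay close together within each genotype.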

How the data were processed

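Per the labels and the paper's methods, reads were trimmed with cutadapt and mapped to dm6 by STAR. The authors deposited the resulting raw read counts per gene (GeneCounts option), 1 table per library, not normalized. The unstranded counts were used. STAR counts only reads with a single alignment and sets aside reads over more than 1 gene, so counts of close copies and overlapping genes can be too low. Its summary lines and 138 ribosomal RNA genes were left out. The summary lines held, over the libraries, 23.8% to 30.0% unmapped, 5.58% to 10.6% multimapping, 4.15% to 6.22% no-feature and 3.28% to 6.26% ambiguous reads. Versions and the annotation release were not given in the sources used here, and for 138 identifiers no symbol was found.

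edgeR 4.0.16 in R 4.3.3 was run on all genes with TMM scaling, filterByExpr (minimum count 10, minimum total 15), estimateDisp, the legacy glmQLFit and then glmQLFTest, with Benjamini-Hochberg adjustment at 0.05. The fit was tested on simulated data. Gene positions and exon lengths came from the Ensembl annotation of dm6. CPM uses TMM-scaled library sizes, and means are given with the SD over libraries. A gene with 3 or fewer reads in every library of a genotype has a fold bound against 3 reads. Library differences used log2(CPM + 1), 3 log2 units and 10 CPM. Replicate numbers were treated as names only. The deviations of same-numbered libraries cannot exclude a batch shared by number. Floors cover counting error only.

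The genes named were, among called genes, the 10 lowest and the 10 highest by log2 fold change, the 10 with the widest range within a genotype, the 6 with the highest mean CPM, those with 3 or fewer reads in a genotype and over 20 in a library of the other, Cpr and CG1603. Any other gene named was picked after its values were seen. The genes and all lists (chitin and apical matrix, tanning, ecdysone, stage, epidermis and trachea, imaginal disc, Twdl and Osi) were chosen with earlier results of these data known. Alternatives were DESeq2 1.42.0, other edgeR fits, scalings and filters, each library left out, 2 left out together, a replicate block and the covariate. Sequences were not used here.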

Additional observations from a re-analysis of the deposited data

How the results depend on the processing

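The number of cuticle protein genes lower in CG1603attP was 19 and stayed within 1.5 times that value except without CG1603attP replicate 1 (34) and with the Twdl and Osi covariate (33). Leaving out each library in turn gave 15 to 34 lower and 2 to 3 higher genes, and a median log2 fold change of −3.61 to −1.31. Over all genes, leaving out each library gave 796 to 1802 lower and 596 to 1738 higher. With CG1603attP replicate 1 and y1w1118 replicate 2 left out together, 992 genes were lower and 607 higher. Fits without a y1w1118 replicate keep a lone library, which is assumed to vary like the mutant libraries. The other settings gave 16 (robust fit) to 23 (DESeq2) lower and 3 higher cuticle protein genes. The calls of Cpr92F, Lcp65Ac, Cpr67B, Cpr47Eg, Cpr12A and Lcp65Ae were lost in at least 1 setting, and no called gene reversed. The count of 22 genes apart between libraries was 27 at 2 log2 units, 17 at 4, 22 with a pseudocount of 0.5 CPM and 18 with 2 CPM. Deviations of same-numbered libraries had correlations of −0.528 and −0.288 over all genes. The first is the Pearson's r of 0.528 between within-genotype differences with its sign turned, so a batch shared by number is not excluded. The replicate block gave 17 lower and 3 higher cuticle protein genes, 16 of the 17 shared with the 19. Genes below about 1 CPM, as Cpr92F, rest on a handful of reads. Of the 29 genes not tested, Ccp84Ae was lower in fits with no filter on low counts and without y1w1118 replicate 1, and its reads came almost wholly from y1w1118 replicate 2. The cause of the changes with the left-out libraries and the covariate was not tested.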
